A study of Mus musculus with 6 samples.

Results

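Calcium held in the endoplasmic reticulum leaves it through IP3 receptors and ryanodine receptors and is pumped back by SERCA pumps. IP3 receptors open on IP3, the messenger made by phospholipase C, and ryanodine receptors open on calcium itself. The small FK506-binding proteins FKBP12 (Fkbp1a) and FKBP12.6 (Fkbp1b) sit on ryanodine receptors and steady their closed state. The 10 genes described here are the 3 IP3 receptors (Itpr1, Itpr2, Itpr3), the 3 ryanodine receptors (Ryr1, Ryr2, Ryr3), both FKBP12 proteins and the SERCA pumps Atp2a2 and Atp2a3. They were taken by gene name from the 54532 genes of the table, and the set was selected on measured values, the FPKM of these same libraries in the comparison below. Differences of these 10 genes between the groups are therefore given as descriptions, without p-values.

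RNA was sequenced from N2a cells, the mouse neuroblastoma line Neuro2A (strain C57BL/6 in the labels), in 3 libraries transfected with si-NC, the control siRNA, and 3 transfected with si-circRtn4, the siRNA against the circular RNA circRtn4. All 6 libraries are of 1 cell line, and the labels give neither a time nor a dose and name only the growth medium. The study's general methods do give an siRNA dose and times of medium change and harvest. They have N2a cells moved, after siRNA transfection, into a medium with retinoic acid that induces differentiation. Whether the sequenced cells were treated so is not said. Nothing states that the libraries came from separate cultures, so the spread between them may be technical. Levels are FPKM, sequenced fragments scaled to gene length and library depth. A gene's FPKM does not show circRtn4 itself, which shares its exons with the linear Rtn4 message. Each library held 13541198 to 15122063 reads on genes, as recovered from the FPKM values. Of 16 sympathetic neuroblastoma markers, 13 had a mean of at least 1 FPKM (Tubb3 and Hand2 were the most abundant), and Nefl was at 0 in every library. Their summed level was 1046 to 1165 FPKM in si-NC and 769 to 1070 FPKM in si-circRtn4. Of 14 muscle markers only the myosin gene Myh3 reached a mean of 1 FPKM (52.1 to 63.2 FPKM), followed by Tnnt3 at a mean of 0.653 FPKM, and the list summed to 56.2 to 64.7 FPKM in si-NC and 53.2 to 64.4 FPKM in si-circRtn4. The 8 fibroblast markers summed to 1.77 to 3.27 FPKM in si-NC and 4.59 to 6.97 FPKM in si-circRtn4, nearly all of it Pdgfrb and then Pdgfra, and Fap was at 0. Immune markers, led by Cd68 and Adgre1, summed to at most 1.68 FPKM with Itgam and Cd3e at 0, and glial markers, led by Mbp, to at most 5.77 FPKM with Aqp4 at 0. Neuroblastoma markers, named here after their values were seen, differed in both directions. Dbh and Th, enzymes of noradrenaline synthesis, went from means of 5.99 and 2.54 FPKM in si-NC to 0.602 and 0.712 FPKM in si-circRtn4, while Elavl4 and Mycn went from 13.6 and 14.0 FPKM to 24.3 and 22.0 FPKM. The part of these markers in the results was not tested.

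Both agents that the study centres on, the siRNA and miR-24-3p, a microRNA that circRtn4 is proposed to bind, can act on messages through a seed of 7 bases. They are shown because a seed site in a message is a sequence feature that the choice of the 10 genes did not use. Capitals mark the seed (bases 2 to 8) in the guide and the microRNA and the site for the guide seed in the listed strand. The listed strand was read as the passenger strand, so that the guide is its reverse complement.
si-circRtn4 as listed: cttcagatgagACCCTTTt
si-circRtn4 guide: aAAAGGGTctcatctgaag
miR-24-3p (RefSeq, GRCm38.p6): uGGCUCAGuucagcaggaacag

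The site for the guide seed (ACCCTTT) occurred in the longest annotated 3′ UTR of 1 of the 10 genes, Fkbp1a, and the site for the miR-24-3p seed (CTGAGCC) in that of 1, Itpr2. Only the message strand was searched, and these motifs do not overlap each other. Among the 10694 genes tested that had an annotated 3′ UTR, 12.5% held the guide site and 19.6% (2091 genes) the miR-24-3p site. The 3′ UTRs of the 10 genes were 114 bases (Ryr1) to 3372 bases (Itpr2) long, with 493 bases for Fkbp1b and 1270 bases for Itpr1, against a median of 1169 bases. Neither motif was found in the 3′ UTRs of Fkbp1b and Itpr1, which says only that these letters are not in these windows. Both sites are shown with their neighbours and with the site in capitals. The Fkbp1a site lies on the plus strand at chr2:151560696-151560702 and the Itpr2 site on the minus strand at chr6:146111540-146111546 (GRCm38), where it is followed by A.
Fkbp1a, guide site: cgtcccaccACCCTTTgtatagaca
Itpr2, miR-24-3p site: gccaagatgCTGAGCCatttagctc

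In si-NC cells the levels ran from the abundant Fkbp1a to the nearly silent Ryr3. Fkbp1a (109.8 FPKM) and Atp2a2, the housekeeping SERCA pump (93.8 FPKM), stood at the top, and their ranges did not overlap. Fkbp1b followed at 13.8 FPKM. Itpr1 (5.75 FPKM) and Atp2a3 (5.45 FPKM) came next, with overlapping ranges. Ryr1 was at 1.03, Ryr2 at 0.748, Itpr2 at 0.351 and Itpr3 at 0.220 FPKM, and of these neighbours the ranges of Itpr2 and Itpr3 overlapped. In si-circRtn4 cells Atp2a3 (7.27 FPKM) stood above both Fkbp1b (5.95 FPKM) and Itpr1 (2.97 FPKM) without overlap, the order by mean was otherwise that of si-NC, and the ranges of Fkbp1a and Atp2a2 overlapped.

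**Figure D1:**
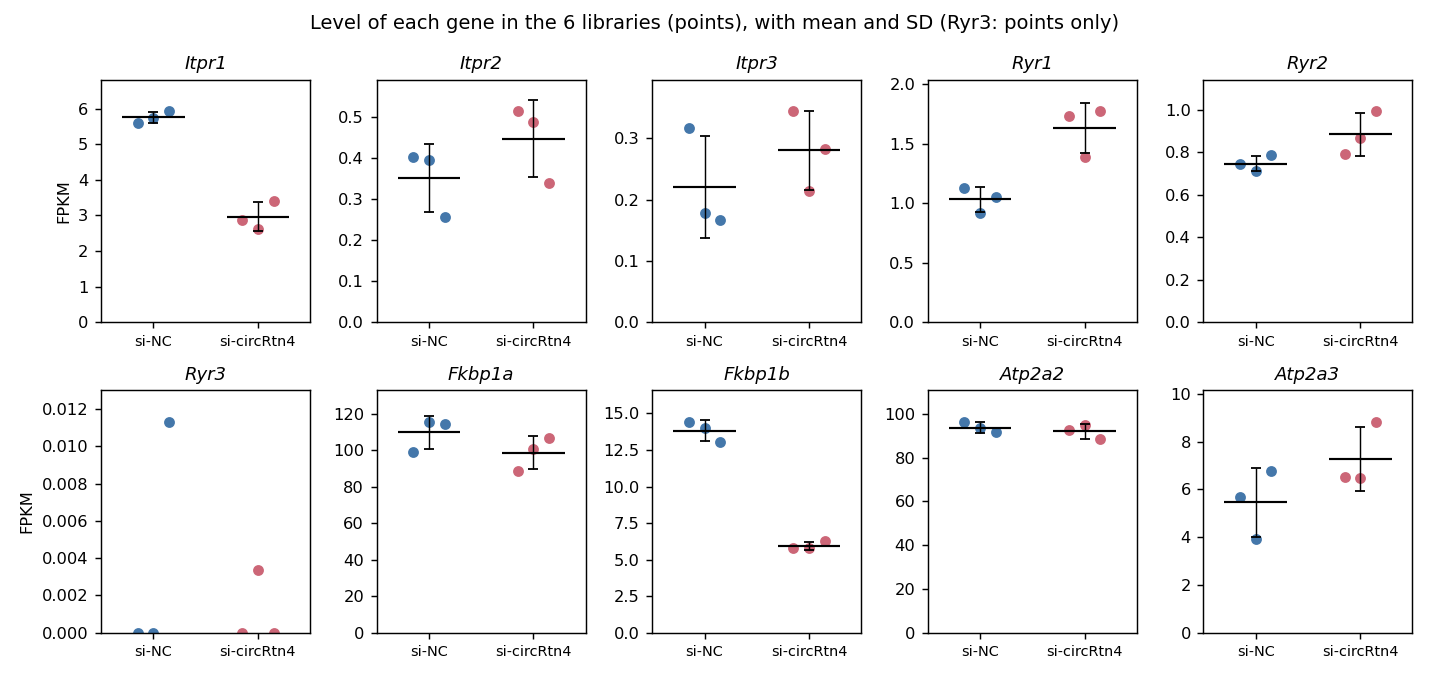
Level of each of the 10 genes in FPKM (vertical axes from 0, each with its own scale) in the 3 si-NC and 3 si-circRtn4 libraries. Points are libraries, and bars are the mean and SD, which are not drawn for Ryr3. The si-circRtn4 points of Itpr1 and Fkbp1b all lie below the si-NC points, and those of Ryr1 and Ryr2 all lie above them.

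Fkbp1b and Itpr1 fell in the si-circRtn4 libraries, to 43.1% and 51.5% of their si-NC means. Of the 6 genes that averaged 1 FPKM or more over the libraries, which were the ones tested (limma on log2(FPKM + 1), a call being an adjusted p under 0.05), these 2 were called and both were lower. Over all 12749 genes tested, 9.19% were called, 4.36% as higher and 4.82% as lower, and since the set was proposed with this comparison in view nothing is read from the count. The median log2 difference was -0.09 over the 6 genes and 0.00197 over all genes tested. Libraries of whole cultures cannot tell fewer cells with a message from less message per cell. With replicate number as a block, 3 of the 6 genes were called, the third being Atp2a3, where 19.0% of all genes were called.

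Fkbp1b (ENSMUSG00000020635) lies on the minus strand of chromosome 12 from 4833174 to 4841591 in GRCm38, and no other listed gene overlaps it. Its level was 14.4, 14.0 and 13.0 FPKM under si-NC, against 5.78, 5.79 and 6.27 FPKM under si-circRtn4. Every si-circRtn4 library lay below every si-NC library, and the groups were far apart next to their spread. The means were 13.8 ± 0.713 and 5.95 ± 0.277 FPKM (SD, n = 3 each), a log2 difference of -1.09 (standard error 0.07). These values rest on 186 to 222 reads per si-NC library and 84 to 93 reads per si-circRtn4 library, as the gene model is only 1021 bases long. Without any 1 library the log2 difference stayed between -1.13 and -1.06.

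Fkbp1a (ENSMUSG00000032966, chromosome 2, 151542483 to 151561692, plus strand), the ubiquitous FKBP12, was at 99.2, 115.5 and 114.6 FPKM in si-NC and at 88.8, 100.7 and 106.5 FPKM in si-circRtn4. The groups overlapped, and the log2 difference of -0.15 (standard error 0.10) was not called. Its 3 processed pseudogenes were listed at 0 FPKM in every library, and how reads shared with them were counted is not given in the sources used here, so its level is uncertain. Fkbp1b made up 12.7%, 10.8% and 10.2% of the FKBP12 sum (Fkbp1a plus Fkbp1b, in FPKM) in si-NC and 6.11%, 5.44% and 5.55% in si-circRtn4. The mean share was 11.2 ± 1.29% against 5.70 ± 0.360% (SD, n = 3 each), and the sum itself was 113.6 to 129.5 FPKM against 94.6 to 112.8 FPKM.

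Itpr1 (ENSMUSG00000030102, chromosome 6, 108213096 to 108551109, plus strand), the main IP3 receptor of neurons, was at 5.60, 5.74 and 5.92 FPKM in si-NC and at 2.87, 2.62 and 3.41 FPKM in si-circRtn4. The groups did not overlap, and si-circRtn4 replicate 3 was the highest of its group. The means were 5.75 ± 0.162 and 2.97 ± 0.407 FPKM (SD, n = 3 each), a log2 difference of -0.77 (standard error 0.10), on 746 to 1548 reads per library. Without any 1 library this difference lay between -0.85 and -0.71. The antisense gene Gm44040 overlaps Itpr1 and was at no more than 0.258 FPKM in any library.

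The other IP3 receptors were far lower and their groups overlapped. Itpr2 (chromosome 6, 146108299 to 146502223, minus strand) was at 0.403, 0.394 and 0.256 FPKM in si-NC and at 0.513, 0.486 and 0.339 FPKM in si-circRtn4. Itpr3 (chromosome 17, 27057304 to 27122223, plus strand) was at 0.317, 0.177 and 0.167 FPKM in si-NC and at 0.344, 0.214 and 0.283 FPKM in si-circRtn4. Both stand below the mean of 1 FPKM and were not tested, and their log2 differences were 0.10 (standard error 0.09) and 0.07 (standard error 0.07) when all detected genes were fitted. The log2(FPKM + 1) scale understates changes at such levels. The si-circRtn4 means were 127.2% (Itpr2) and 127.3% (Itpr3) of the si-NC means, on 53 to 112 and 21 to 44 reads per library. Itpr1 made up 88.6%, 91.0% and 93.3% of the IP3 receptor sum in si-NC and 77.0%, 78.9% and 84.6% in si-circRtn4. The sum of the 3 receptors was 6.31 to 6.34 FPKM in si-NC and 3.32 to 4.04 FPKM in si-circRtn4, so that Itpr1 was the main IP3 receptor message in every library.

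**Figure D2:**
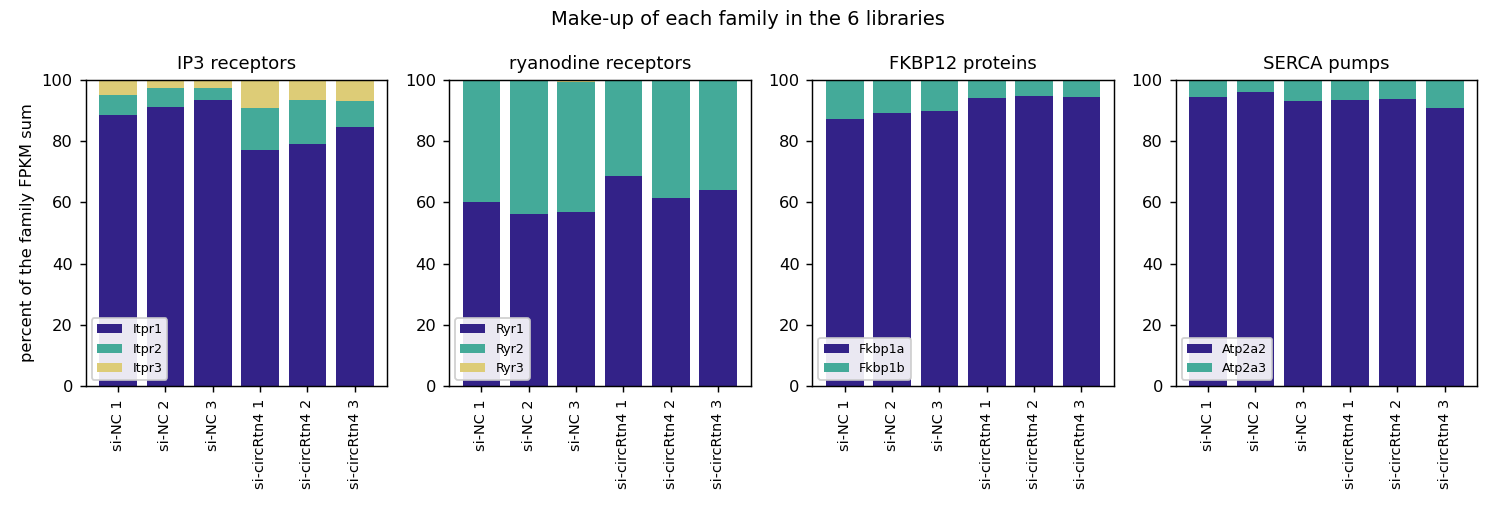
Share of each gene in its family's FPKM sum (vertical axis, percent) in each of the 6 libraries, for IP3 receptors, ryanodine receptors, FKBP12 proteins and SERCA pumps. The SERCA sum is of Atp2a2 and Atp2a3 only. The Itpr1 share is 88.6% to 93.3% in si-NC and 77.0% to 84.6% in si-circRtn4, and the Fkbp1b share is 10.2% to 12.7% and 5.44% to 6.11%.

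Among the ryanodine receptors, Ryr1, best known as the release channel of skeletal muscle, was at 1.13, 0.915 and 1.05 FPKM in si-NC and at 1.73, 1.39 and 1.77 FPKM in si-circRtn4. Its si-circRtn4 libraries all lay above its si-NC libraries (ENSMUSG00000030592, chromosome 7, 29003344 to 29125179, minus strand). The means were 1.03 ± 0.107 and 1.63 ± 0.212 FPKM (SD, n = 3 each), on 288 to 562 reads per library. The log2 difference of 0.37 (standard error 0.13) was not called. With a pseudocount of 0.1 it was 0.61 (standard error 0.22) and again not called. Limma-voom on the recovered reads gave 0.67 (standard error 0.13) and called it. Ryr2, the release channel of heart muscle and of many neurons, was at 0.743, 0.713 and 0.787 FPKM in si-NC and at 0.791, 0.870 and 0.994 FPKM in si-circRtn4 (chromosome 13, 11553102 to 12106945, minus strand). The groups did not overlap but lay close together, with a log2 difference of 0.11 (standard error 0.10) when all detected genes were fitted. The si-circRtn4 mean of Ryr2 was 118.4% of its si-NC mean, a change that the log2(FPKM + 1) scale understates at this level. Among the 6 genes tested, the groups did not overlap for Fkbp1b and Itpr1 (lower) and Ryr1 (higher), where 15.5% of all genes tested were lower and 16.2% higher without overlap. Ryr3 (chromosome 2, 112631355 to 113217096, minus strand) had 3 reads in si-NC replicate 3, 1 read in si-circRtn4 replicate 2 and 0 in the other libraries, so that a difference was not detectable at this depth. It shares its locus with Aven on the other strand (2.93 to 3.73 FPKM). The 3 receptors together were at 1.63 to 1.87 FPKM in si-NC and 2.26 to 2.76 FPKM in si-circRtn4.

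The SERCA pumps differed from each other. Atp2a2 (ENSMUSG00000029467, chromosome 5, 122453513 to 122502225, minus strand) was at 96.3, 93.4 and 91.6 FPKM in si-NC and at 92.7, 94.9 and 88.5 FPKM in si-circRtn4. The groups overlapped almost entirely, with a log2 difference of -0.03 (standard error 0.07), which was 0.07 as TPM and 0.04 after quantile normalization. Atp2a3 (ENSMUSG00000020788, chromosome 11, 72961169 to 72993044, plus strand), a pump known mainly from blood and epithelial cells, was at 5.67, 3.93 and 6.77 FPKM in si-NC and at 6.51, 6.47 and 8.82 FPKM in si-circRtn4. The groups overlapped, and si-NC replicate 2 was the lowest and si-circRtn4 replicate 3 the highest library. The log2 difference of 0.37 (standard error 0.18) was not called, was 0.19 without si-NC replicate 2 and was called with replicate number as a block (standard error 0.10), just inside the threshold. Atp2a2 made up 93.1% to 96.0% of the SERCA sum (Atp2a2 plus Atp2a3) in si-NC and 90.9% to 93.6% in si-circRtn4. The third SERCA gene, Atp2a1, was listed with the other pumps and is not in this sum.

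**Figure D3:**
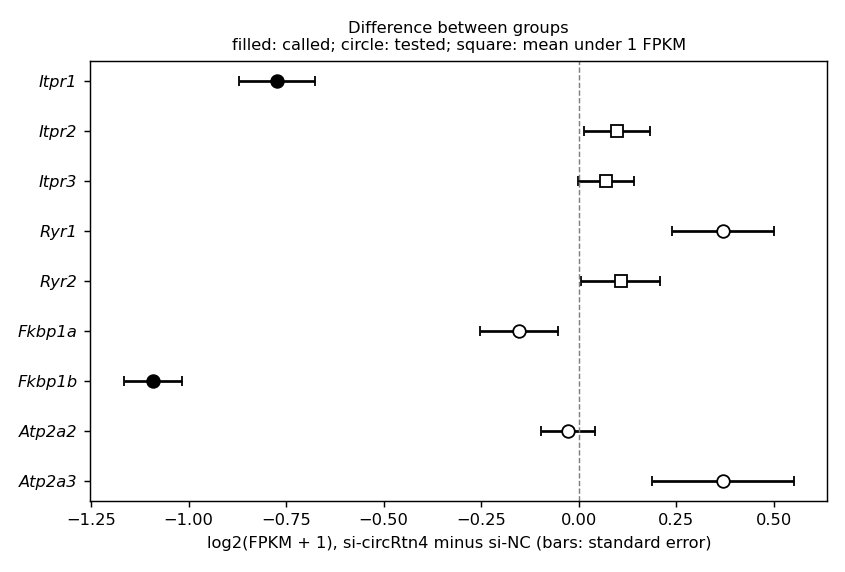
Difference between the groups on the log2(FPKM + 1) scale (horizontal axis, si-circRtn4 minus si-NC) for 9 of the genes, with bars for the standard error. Filled points were called, circles were tested and squares have a mean under 1 FPKM. Fkbp1b (-1.09) and Itpr1 (-0.77) lie far below 0, while Ryr1 and Atp2a3 (0.37 each) lie above it.

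Over the 6 libraries, the protein-coding genes with the profile most like that of Fkbp1b were Peg3, Unc5a, Tmtc1, Sort1 and Ptprf. Likeness was the Euclidean distance between profiles of log2(FPKM + 1) with each gene's mean removed, and these distances were 0.135 to 0.208 against a median of 1.37 over 10782 genes. Peg3, an imprinted zinc finger gene, was at 35.1, 35.1 and 34.3 FPKM in si-NC and at 16.3, 14.8 and 17.5 FPKM in si-circRtn4. Itpr1 stood at rank 69 in this order, with a distance of 0.438. The group difference is part of these profiles, and the 5 genes had log2 differences of -1.18 to -1.02. Since Fkbp1b and Itpr1 were selected on this same comparison, the likeness is a description and no support.

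The other genes of calcium handling were taken from 10 lists written from knowledge of the pathway. Earlier results of these data were known when the lists were chosen, so the p-values of their genes are no independent support. Of 164 genes listed, 163 were found and 112 were tested. In limma with Benjamini-Hochberg adjustment 5 were higher and 8 were lower in si-circRtn4, which is 11.6% of those tested beside 9.19% of all genes. Their median log2 difference was -0.07, with 44 above 0 and 68 below. Log2 differences are of log2(FPKM + 1), a scale on which the change of low genes is understated. By list, 0% to 25% of the genes tested were called, beside 9.19% of all genes, and nothing is read from the count of a single list. With replicate number as a block, 7 were higher and 13 lower, which is 17.9% of those tested beside 19.0% of all genes.

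Of the other FKBP proteins, 12 were tested and 25% of these were called, beside 9.19% of all genes. Fkbp11 rose and Fkbp7 and Fkbp9 fell, all of them FK506-binding proteins of the endoplasmic reticulum. Fkbp7 went from 4.65 ± 0.740 to 2.36 ± 0.210 FPKM (SD, n = 3 each). Its log2 difference was -0.74, with an adjusted p of 0.0116 from limma. Fkbp9 changed by -0.42 on the log2 scale (adjusted p = 0.037 from limma) and Fkbp11 by 0.71 (adjusted p = 0.0312 from limma). Fkbp9, Fkbp11 and Fkbp7 lost the call in 8, 5 and 1 of 13 alternative fits. Among 19 calcium buffers and junction proteins of the reticulum, Rcn3 and Calu, EF-hand proteins of the secretory pathway, fell and Srl (sarcalumenin), a calcium-binding protein of the muscle reticulum, rose. Rcn3 was at 42.9, 36.8 and 34.0 FPKM in si-NC and at 20.3, 19.0 and 20.1 FPKM in si-circRtn4. Its log2 difference was -0.89 (standard error 0.10, adjusted p = 0.00313 from limma). Srl went from 1.78 ± 0.183 to 3.69 ± 0.489 FPKM (SD, n = 3 each). On the log2(FPKM + 1) scale Srl changed by 0.75 (adjusted p = 0.0103 from limma) and Calu by -0.32 (adjusted p = 0.0326 from limma).

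Of 10 other pumps and exchangers tested, Atp2b4, a calcium pump of the plasma membrane, fell from 6.75 ± 1.57 to 2.99 ± 0.551 FPKM (SD, n = 3 each). On the log2(FPKM + 1) scale Atp2b4 changed by -0.95 (adjusted p = 0.0145 from limma). Among 14 genes of IP3 production and breakdown, Plcd3, a phospholipase C, rose from 13.4 ± 1.2 to 22.2 ± 1.30 FPKM (SD, n = 3 each). Its log2 difference was 0.69 (standard error 0.09, adjusted p = 0.00525 from limma). S100a1, a calcium-binding protein that binds ryanodine receptors, was the gene called among 18 regulators of the channels and pumps. Its log2 difference was 0.54 (adjusted p = 0.0349 from limma). Tmem38b, a cation channel of the reticulum, was called among 6 other release channels and messengers (0.46, adjusted p = 0.0447 from limma). Among 8 genes of calcineurin, Nfatc3, a transcription factor that calcineurin activates, fell from 11.6 ± 0.400 to 7.13 ± 0.227 FPKM (SD, n = 3 each). On the log2(FPKM + 1) scale Nfatc3 changed by -0.63 (adjusted p = 0.00324 from limma). Mcub, the inhibitory subunit of the mitochondrial calcium uniporter, fell among 12 uptake genes (-0.59, adjusted p = 0.0117 from limma), and Cacna1i, a T-type calcium channel, among 7 voltage-gated channels (-0.61, adjusted p = 0.0102 from limma).

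No gene of store-operated calcium entry was called by limma among 6 tested, beside 9.19% of all genes. Of these genes 0 had an unadjusted p under 0.05 or were called by limma-voom. With only 6 genes, nothing is read from these counts or from the directions that follow. Of the 6, 5 had a log2 difference above 0 and 1 below, with a median of 0.19. The 1 below 0 was Saraf, the most abundant of them. Saraf was at 104.1 ± 9.60 FPKM in si-NC and 90.5 ± 3.28 FPKM in si-circRtn4 (SD, n = 3 each). Its log2 difference was -0.20 (adjusted p = 0.211 from limma). Of the 13 genes called over all lists, Rcn3, Plcd3, Nfatc3, Mcub and Cacna1i were called in all 13 alternatives. The other 8 lost the call in 1 to 8 of them, each of these 8 when all detected genes were tested.

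**Figure D4:**
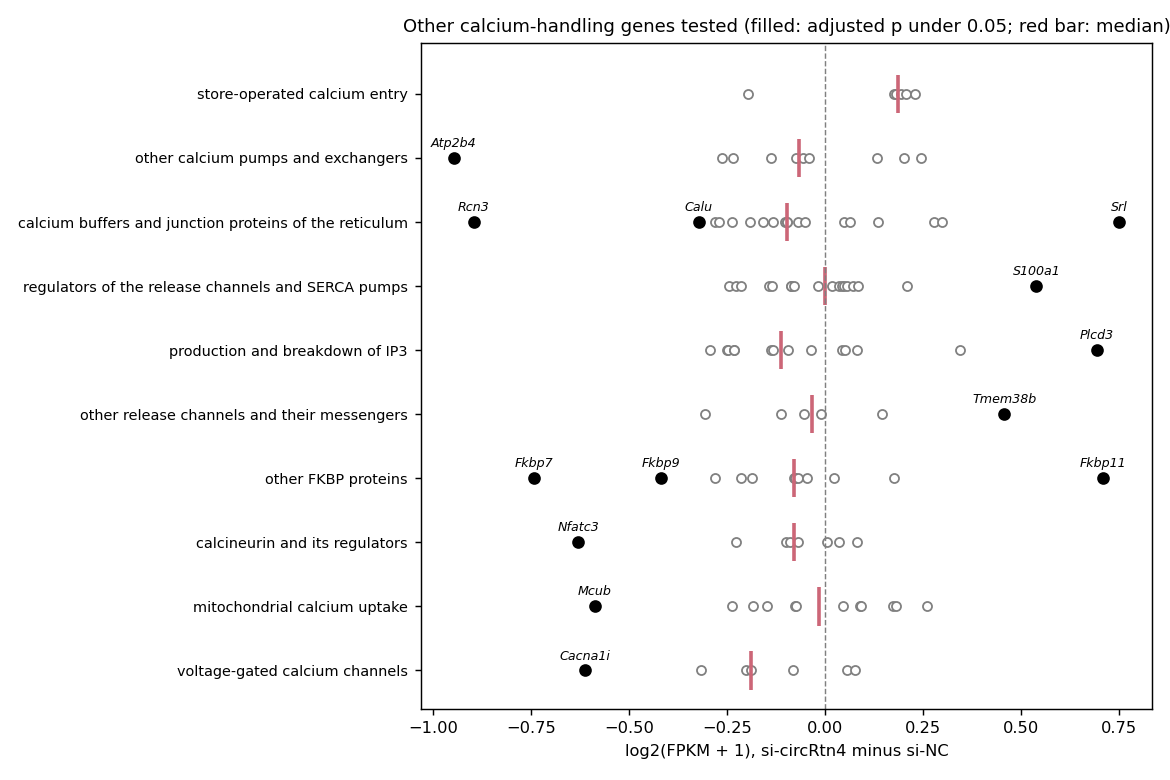
Difference between the groups on the log2(FPKM + 1) scale (horizontal axis, si-circRtn4 minus si-NC) of the 112 other calcium-handling genes tested, 1 row for each list. Filled points have an adjusted p under 0.05 in limma, and red bars are medians. The called genes are spread over 9 lists, with 8 to the left of 0 and 5 to the right.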

How the data were processed

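The authors deposited 1 table of genes with FPKM, length and coordinates. The submitters' processing notes name Bowtie 0.12.2 and the builds mm8 and mm9, whereas all 10 genes, and 98.1% of the 54532 genes listed, have their GRCm38 coordinates of GENCODE M21. The counting tool is not given in the sources used here. A further 6 columns belong to other samples and were left out. The product of FPKM and length was a whole multiple of a fixed step in each library (within 0.01) for 100% of values above 0, and these multiples were taken as reads.

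Libraries were grouped by their titles. In R 4.3.3, limma 3.58.1 (eBayes, trend set) compared log2(FPKM + 1) over the 12749 genes averaging 1 FPKM or more, with Benjamini-Hochberg adjustment over all of them. On this scale the change of low genes is understated. The test was run on simulated data first. Python 3.11.15 was used for the other steps. Replicate numbers are shared between the groups. After removing group means, same-numbered libraries correlated at 0.331, 0.19 and 0.226, and differently numbered ones at -0.228 to 0.009. Removing the means ties these values to each other, so they cannot establish a pairing. A second fit took the number as a block, with the numbers as pairs. Whether the libraries were paired is not stated.

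The members and lists were chosen with earlier results of these data known. Named were all 10 members, in each list the genes called (at most 4, by the size of the change) or else the most abundant gene, the 2 most abundant markers of each list, and the 5 genes most like Fkbp1b. Some markers are not reported here. Listed symbols missing from the table were matched by RefSeq synonyms. The search for seed sites covered each gene's longest 3′ UTR of at least 20 bases in GENCODE M21. The siRNA sequence came from the study's supplement.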

Additional observations from a re-analysis of the deposited data

How the results depend on the processing

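Fkbp1b and Itpr1 were lower in all 13 alternatives, which is no independent support, since the genes were selected on these same libraries. The alternatives were a pseudocount of 0.1, TPM with and without Gm23935, quantile normalization, all detected genes tested, limma-voom, the replicate block and the 6 fits without 1 library. TPM without Gm23935 was chosen after seeing the data. The number of members called was 2 in all but limma-voom (3, with Ryr1) and the replicate block (3, with Atp2a3), and 2 in each fit without 1 library. Of all genes, 9.19% were called in the main fit and 19.0% with the block, and nothing is read from these counts. With a pseudocount of 0.1 the log2 differences were -1.20 for Fkbp1b, -0.94 for Itpr1 and 0.61 for Ryr1, and in limma-voom they were -1.19, -0.94 and 0.67. Ryr1 was at 0.58 as TPM and 0.55 as TPM without Gm23935, and Atp2a2 at 0.0658 as TPM and 0.0376 after quantile normalization. TPM moved the median of all genes from 0.00197 to 0.09, and to 0.0233 without Gm23935. TPM divides by the FPKM sum of a library. Gm23935 alone held 20.1% to 20.7% of that sum in si-NC and 13.5% to 18.8% in si-circRtn4. Without 1 library the ranges were -1.13 to -1.06 for Fkbp1b, -0.85 to -0.71 for Itpr1, 0.33 to 0.44 for Ryr1, 0.19 to 0.52 for Atp2a3, -0.22 to -0.08 for Fkbp1a and -0.05 to 0.0012 for Atp2a2.

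The calcium-handling genes called numbered 13 (11.6% of those tested, beside 9.19% of all genes). With the replicate block they numbered 20 (17.9%, beside 19.0% of all genes). There were 5 with all detected genes tested and 7 to 10 without 1 library. The latter were 8 without si-NC replicate 2, 8 without si-circRtn4 replicate 1 and 7 without si-circRtn4 replicate 2. The share of all genes called is not given for these other fits, so nothing is read from their counts. From reads in place of FPKM, which are not per length, the Itpr1 share was 93.6% in si-NC and 85.4% in si-circRtn4, and the Fkbp1b share 3.24% and 1.58%. The replicate block changed no call of a member other than that of Atp2a3. Depth limits Ryr3, which had at most 3 reads per library. Ryr2, Itpr2 and Itpr3 were not tested because their means are under 1 FPKM.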
